A study of Homo sapiens with 12 samples.

Results

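ARHGEF10 and DOCK6 encode guanine nucleotide exchange factors, enzymes that switch small GTPases on by making them release GDP. The data described here are the RNA contacts of 3 RNA-binding proteins along these 2 genes. The pair was chosen from the same measurements, for FOX2 signal in their introns, so the contrast between FOX2 and the other proteins is described below and not tested. Each gene was taken as 1 span of the human build hg19: ARHGEF10 as chr8:1772149-1906807 on the plus strand (135 kb) and DOCK6 as chr19:11309969-11373157 on the minus strand (63.2 kb). Of 1162690 positions listed over 12 libraries, 3154 lay in the ARHGEF10 span and 528 in the DOCK6 span, each on the gene's own strand.

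The libraries were made by iCLIP, which joins proteins to RNA with ultraviolet light, recovers 1 protein with an antibody and reads where reverse transcription stopped at the crosslink. The cells were H9, an established human embryonic stem cell line, kept on Matrigel in mTeSR medium or in fibroblast-conditioned medium with bFGF. Wild-type (WT) cells and P-KO cells, whose source label reads SPA PKO, were both irradiated at 400 mJ per square centimetre. Antibodies were against RBFOX2 (labelled FOX2), TDP43 or hnRNP M, giving 6 groups of 2 libraries, described in the series text as biological replicates. How the P-KO line was made, and from how many clones, is not given in the sources used here, nor which medium each library came from.

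RBFOX2 is a splicing factor that recognises GCAUG in RNA; where it binds in the intron downstream of an alternative exon it usually favours inclusion of that exon, and upstream it usually favours skipping. TDP43 binds GU-rich stretches, often deep in long introns, and hnRNP M, found mainly in the nucleus, also acts on splicing. ARHGEF10 has been studied in peripheral nerve, and DOCK6, a member of the DOCK family with a DHR2 catalytic domain, acts on Rac1 and Cdc42. These statements are background and were not measured here.

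The unit of signal was the window count: each deposited count covers 11 nt around its position, and non-overlapping windows were added up. Window counts ranged from 58191 to 648651 per library, with hnRNP M the shallowest protein and FOX2 P-KO replicate 2 the deepest library. Levels are given as CPM, a library's window counts scaled to a total of 1000000. A region without a line in a library is called listed at 0, because only counts of at least 2 with a listed p or q of at most 0.05 were deposited; no upper limit or fold is given against such a value. A region of chromosome 15 with lower signal in P-KO cells held 0.915% to 1.63% of window counts in the 6 WT libraries and 0.0530% to 0.160% in the 6 P-KO libraries. The region is described by that same difference, so these shares are no independent check of the genotype labels.

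Over the whole ARHGEF10 span all 3 proteins had signal, and FOX2 did not stand above TDP43 in WT cells. FOX2 gave 2213 and 2636 CPM in the WT libraries (484 and 761 counts) and 3954 and 3902 CPM in P-KO (918 and 2531 counts). TDP43 gave 3123 and 2481 CPM in WT (649 and 702 counts) and 2306 and 2884 CPM in P-KO (398 and 844 counts). The FOX2 and TDP43 values overlapped in WT cells, while in P-KO cells both FOX2 libraries lay above both TDP43 libraries. The share of all features that did so was not counted, and the gene was chosen for FOX2 signal, so nothing is read from this order. For hnRNP M the values were 1363 and 1263 CPM in WT, against 1274 and 2354 CPM for P-KO, from 79 to 156 counts. The order of the WT means was TDP43 (2802 ± 455 CPM, SD, n = 2), FOX2 (2424 ± 299) and hnRNP M (1313 ± 70.5), and the first pair were not separated by the spread of their libraries. The opposite strand of the ARHGEF10 span was listed at 0 in every library.

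DOCK6 was different: nearly all of its listed signal was FOX2 signal. FOX2 gave 475 and 665 CPM in WT (104 and 192 counts) and 1034 and 1656 CPM in P-KO (240 and 1074 counts). TDP43 had 2 counts in WT replicate 1, was listed at 0 in WT replicate 2, and had 9 and 10 counts in P-KO. All 4 hnRNP M libraries were listed at 0 over the DOCK6 span, and on its opposite strand only FOX2 WT replicate 2 had counts (3). Set per kilobase of span, mean FOX2 signal in WT was 18.0 ± 2.22 CPM per kb (SD, n = 2) on ARHGEF10 and 9.02 ± 2.12 on DOCK6. Because iCLIP signal depends on how much of an RNA is present, more contact per molecule and more RNA cannot be told apart, for either gene.

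**Figure D1:**
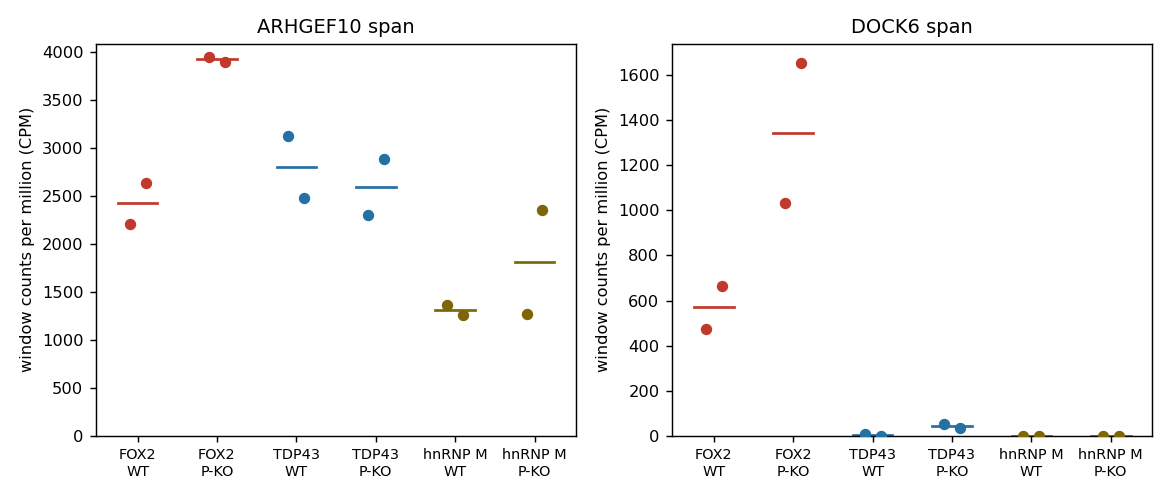
CPM (y axis) in the ARHGEF10 span (left) and the DOCK6 span (right), 1 point per library and a bar at each group's mean, n = 2 per group. On ARHGEF10 the FOX2 and TDP43 WT libraries overlap between 2213 and 3123 CPM, whereas on DOCK6 the 4 FOX2 libraries lie between 475 and 1656 CPM and the hnRNP M libraries at 0.

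Signal in both genes was intronic. Positions with an intron number held 97.2% to 100% of FOX2 window counts on ARHGEF10 and 90.4% to 96.2% on DOCK6, against 79.7% to 95.4% over whole libraries of any protein. Introns are named here as the deposited labels number them. In 9846 minus-strand transcripts of the files every intron number rose with genome coordinate, so on DOCK6 the numbers count from the 3′ end of the RNA; on ARHGEF10 they count from the 5′ end. One transcript carried most labels in each gene: ENST00000349830.3 held 94.6% of listed ARHGEF10 positions and ENST00000294618.7 held 85.6% of listed DOCK6 positions.

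On ARHGEF10, FOX2 and TDP43 both placed most of their counts in intron 1, yet at different places within it. Intron 1 of ENST00000349830.3 held 66.8% of the gene's FOX2 counts, 72.3% of its TDP43 counts and 37.1% of its hnRNP M counts. FOX2 was concentrated in a stretch of 1066 nt, chr8:1772709-1773774, which begins 560 nt from the 5′ end of the span (the end as set here, not an annotated start). That stretch had 327 and 504 counts in FOX2 WT, against 599 and 1309 for FOX2 P-KO, or 67.6%, 66.2%, 65.3% and 51.7% of the gene's FOX2 counts. All 4 TDP43 libraries were listed at 0 there, and of the hnRNP M libraries only P-KO replicate 2 had any counts (5). The FOX2 stretch thus held most of the gene's signal in every FOX2 library and none of the listed TDP43 signal.

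TDP43 was concentrated farther into the same intron, in chr8:1786793-1789066, 14644 to 16917 nt from the 5′ end. Its counts there were 446 and 414 in TDP43 WT, against 168 and 468 for TDP43 P-KO, or 68.7%, 59.0%, 42.2% and 55.5% of the gene's TDP43 counts. FOX2 had 12 and 0 counts there in WT, against 10 and 6 for P-KO, at most 2.48% of its counts on the gene. The gap between the FOX2 and TDP43 stretches was 13019 nt. A smaller TDP43 site, chr8:1774593-1774696, began 819 nt beyond the end of the FOX2 stretch, with 48 and 26 TDP43 counts in WT, against 5 and 32 for P-KO; FOX2 P-KO replicate 2 alone among the FOX2 libraries had counts there (10).

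**Figure D2:**
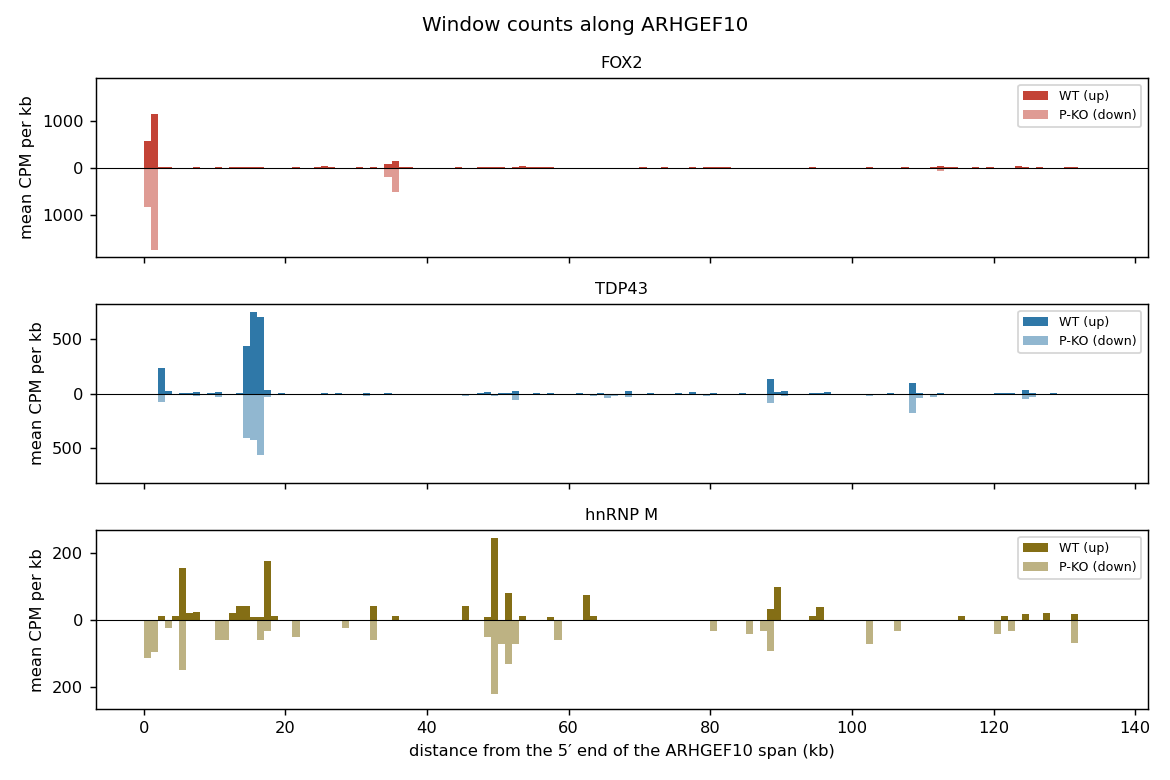
Mean CPM per kb (y axis, a separate scale for each protein) in 1 kb tiles along the ARHGEF10 span, against distance from its 5′ end in kb, with WT drawn upwards and P-KO downwards as the mean of 2 libraries. FOX2 peaks within the stretch 560 to 1625 nt from the 5′ end and again near 34882 nt, TDP43 peaks between 14644 and 16917 nt, and hnRNP M is spread over many tiles.

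The FOX2 intron sites of ARHGEF10 were then taken one by one. A site was a run of windows that touched or overlapped when all 12 libraries were pooled, so its libraries need not overlap each other. In the span 455 sites were found, of which 201 had FOX2 windows, 217 TDP43 windows and 81 hnRNP M windows. Most were seen once: 332 of the 455 were present in 1 library only. FOX2 and TDP43 shared 25 sites. In all 4 FOX2 libraries 7 sites were present, in all 4 TDP43 libraries 15, in all 4 hnRNP M libraries 1, and no site was present in all FOX2 and all TDP43 libraries. The FOX2 number moved with the WT libraries: it was 13 without WT replicate 1 and 12 without WT replicate 2.

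Of the 7 repeated FOX2 sites, 5 made up the stretch at the start of intron 1. The strongest, chr8:1773452-1773774, had 170 and 399 counts in WT, against 347 and 1064 for P-KO, that is 777, 1382, 1495 and 1640 CPM. Its highest position was 1773621 in 3 of the 4 FOX2 libraries (56, 75 and 228 counts) and 1773616, 5 nt away, in WT replicate 1 (36 counts). The next, chr8:1772709-1772800, had 60 and 74 counts in WT, against 103 and 147 for P-KO, but its highest position differed between libraries, from 1772718 to 1772783. The 3 weaker sites lay between them. The site chr8:1773122-1773193 had 33 and 5 counts in WT, against 55 and 16 for P-KO, high in replicate 1 of both genotypes; the other two had between 4 and 56 counts in each FOX2 library.

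The remaining 2 repeated FOX2 sites lay in intron 3, in the stretch chr8:1807031-1807771, 34882 to 35622 nt from the 5′ end. The larger, chr8:1807702-1807771, had 12 and 26 counts in WT, against 96 and 85 for P-KO. The smaller, chr8:1807031-1807043, had 5 and 9 counts in WT and 15 in each P-KO library. Over the whole stretch FOX2 gave 128 and 260 CPM in WT, against 861 and 401 CPM for P-KO, and every TDP43 and hnRNP M library was listed at 0. Intron 3 held 13.5% of the gene's FOX2 counts, against 0.116% of TDP43 and 0.658% of hnRNP M counts.

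Both intron 3 sites lay downstream of positions that the files label as exonic in another transcript, ENST00000382795.3. Those positions ran from 1806937 to 1806978, inside intron 3 of the main transcript; only listed positions are known, so the true exon ends are not. Measured from the last of them, the FOX2 sites lay 53 to 65 nt and 724 to 793 nt downstream. Of FOX2 counts within the listed extent of intron 3 and outside those positions, 84.8% and 93.8% were downstream for WT, with 100% and 80.2% for P-KO (28, 75, 200 and 260 downstream counts). The downstream part was also the longer, with 900 nt of listed extent against 566 nt upstream, or 61.4% of the length. Neither TDP43 nor hnRNP M had more than 3 counts in the intron in any library.

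The repeated TDP43 and hnRNP M sites of ARHGEF10 lay apart from the repeated FOX2 sites. Of the 15 sites in all 4 TDP43 libraries, 13 lay in the TDP43 stretch of intron 1, 1 was the site at chr8:1774593-1774696, and 1 was chr8:1880498-1880516 in intron 25 (6 and 5 counts in WT, 7 and 16 in P-KO). Of the 15 sites, 8 had a FOX2 window in any library. FOX2 had 12 and 0 counts over the 15 sites in WT, against 10 and 16 for P-KO. In both libraries of at least 1 TDP43 group 35 sites were present, 27 of them in both WT and 23 in both P-KO libraries. Of these 35, 11 had a FOX2 window in any library. Introns 18 and 25 held 6.94% and 5.94% of TDP43 counts but 0.0639% and 0.192% of FOX2 counts. The single site present in all 4 hnRNP M libraries, chr8:1821144-1821196 in intron 7, had 8 and 2 counts in WT, against 4 and 2 for P-KO. Each library had 1 window, at 1821190 and 1821144 in WT, and at 1821150 and 1821196 in P-KO. No hnRNP M position was thus common to its libraries. The ends of the site were joined only by windows of FOX2 P-KO replicate 2 (6 counts) and of TDP43 P-KO (2 and 3 counts). Intron 7 held 26.3% of hnRNP M counts against 1.30% of FOX2 counts. The 10 kb bin around this site had 34 and 19 hnRNP M counts in WT, against 44 and 23 for P-KO.

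The separation of FOX2 from TDP43 also appeared when whole libraries were compared. The measure was the share of the smaller library's ARHGEF10 windows that overlapped the other's. Between 2 FOX2 libraries the median share was 46.1% (36.0% to 64.9%, 6 pairs), and between 2 TDP43 libraries 39.5% (22.2% to 51.6%, 6 pairs). Between a FOX2 and a TDP43 library it was 3.12% (0% to 8.21%, 16 pairs). The hnRNP M libraries, with 9 and 43 windows in WT and 10 and 26 in P-KO, overlapped each other by 3.85% (0% to 11.1%, 6 pairs). They overlapped FOX2 libraries by a median of 0% (0% to 15.4%, 16 pairs) and TDP43 libraries by 3.09% (0% to 20.0%, 16 pairs). The hnRNP M share between its own libraries was thus close to that between FOX2 and TDP43 libraries. No separation of hnRNP M from the other proteins was shown by these shares. These shares are a description, since the genes were chosen on FOX2 signal.

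Within each FOX2 library the first 10 kb bin of ARHGEF10, chr8:1770001-1780000, was among the strongest bins of the genome. It ranked 14 and 10 in WT, against 16 and 19 for P-KO, out of 30712 to 45179 bins with counts. In TDP43 libraries the next bin, chr8:1780001-1790000, ranked 14 and 15 in WT, against 10 and 10 for P-KO. Neighbouring bins of 1 intron were therefore near the top for different proteins, but neither bin was high for 1 protein alone. The first bin ranked 124 and 227 in TDP43 WT, against 873 and 501 for P-KO. In hnRNP M it ranked 2003 and 118 in WT, against 91 and 106 for P-KO, of 6254 to 20932 bins with counts. The second bin ranked 616 and 49 in hnRNP M WT and 55 in P-KO replicate 2, and was listed at 0 in P-KO replicate 1. In FOX2 it ranked 667 in WT replicate 1, and 2848 and 3087 in P-KO.

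On DOCK6 the FOX2 signal was concentrated in 1 intron. Intron 26 of ENST00000294618.7 held 90.4% of the gene's FOX2 counts: 94 and 167 counts in WT, against 222 and 973 for P-KO. All 5 sites present in the 4 FOX2 libraries fell in 1 stretch, chr19:11341281-11342888, 30269 to 31876 nt from the 5′ end of the span. This stretch had 88 and 131 counts in WT, against 183 and 773 for P-KO, or 84.6%, 68.2%, 76.2% and 72.0% of the gene's FOX2 counts. The only counts of another protein there were 2 in TDP43 P-KO replicate 2. The 10 kb bin holding the stretch, chr19:11340001-11350000, ranked 90 and 87 in FOX2 WT, against 93 and 43 for FOX2 P-KO.

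Of 51 sites in the DOCK6 span, 42 had windows of FOX2 alone, 8 of TDP43 alone, and 1 of both; 33 were present in 1 library only. Of these sites 5 were present in all 4 FOX2 libraries, and 8 when WT replicate 1 was left out. The site with the most counts, chr19:11342753-11342836, had 6 and 68 counts in WT, against 48 and 308 for P-KO. Its highest position was 11342799 in WT replicate 2 (38 counts) and 11342795 in both P-KO libraries (19 and 152 counts), while WT replicate 1 had its highest count, 6, at 11342753 to 11342762. The second, chr19:11342535-11342633, had 60 and 13 counts in WT, against 70 and 194 for P-KO. These 2 neighbouring sites changed rank between libraries, since WT replicate 1 was higher at the second and WT replicate 2 at the first. FOX2 windows of 2 DOCK6 libraries overlapped by a median of 65.4% of the smaller set (34.6% to 78.6%, 6 pairs).

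The other 3 repeated DOCK6 sites were smaller. The site chr19:11342474-11342485, only 12 nt long, had 8 and 10 counts in WT, against 12 and 40 for P-KO. The site chr19:11341281-11341344, the farthest from the others, had 5 and 6 counts in WT, against 25 and 101 for P-KO. The last, chr19:11342862-11342888, had 4 and 12 counts in WT, against 4 and 36 for P-KO, and its positions carry an exon label in some libraries and an intron label in others.

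That exon label again came from another transcript, ENST00000319867.7, with listed positions from 11342862 to 11342965 inside intron 26 of the main transcript. DOCK6 is read towards lower coordinates, so the other 4 sites were downstream of it, at 26 to 109 nt, 229 to 327 nt, 377 to 388 nt and 1518 to 1581 nt from the last listed exonic position. Of FOX2 counts within the listed extent of the intron and outside the exonic positions, 94.7% and 96.2% were downstream for WT, with 86.9% and 92.0% for P-KO; the downstream part made up 81.8% of that length (2519 nt, against 561 nt upstream). The exonic positions themselves had 4 and 15 FOX2 counts in WT, against 7 and 79 for P-KO. The 2 intron 3 sites of ARHGEF10 and these 4 DOCK6 sites thus lay downstream of positions that another transcript uses as exon. The 5 intron 1 sites of ARHGEF10 did not: the exon-labelled position listed in that intron, 1774220 in ENST00000398560.1 (3 counts, in TDP43 WT replicate 2), lay beyond them. Whether any of these exons is included was not measured by these libraries.

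**Figure D3:**
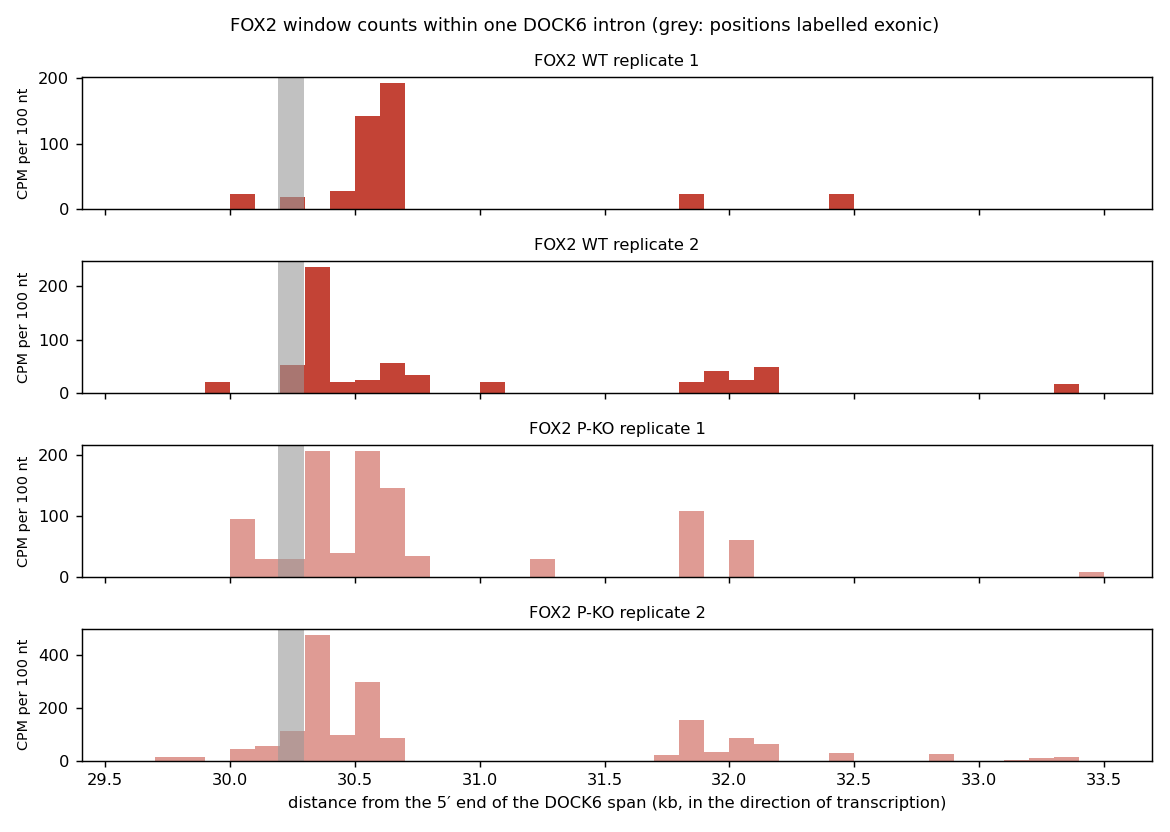
FOX2 CPM per 100 nt tile (y axis, scaled separately in each panel) against distance from the 5′ end of the DOCK6 span in kb, in the direction of transcription, for the 4 FOX2 libraries. The grey band marks listed positions with the exon label; most counts lie to its right, 86.9% to 96.2% of those in the intron outside the band.

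**Figure D4:**
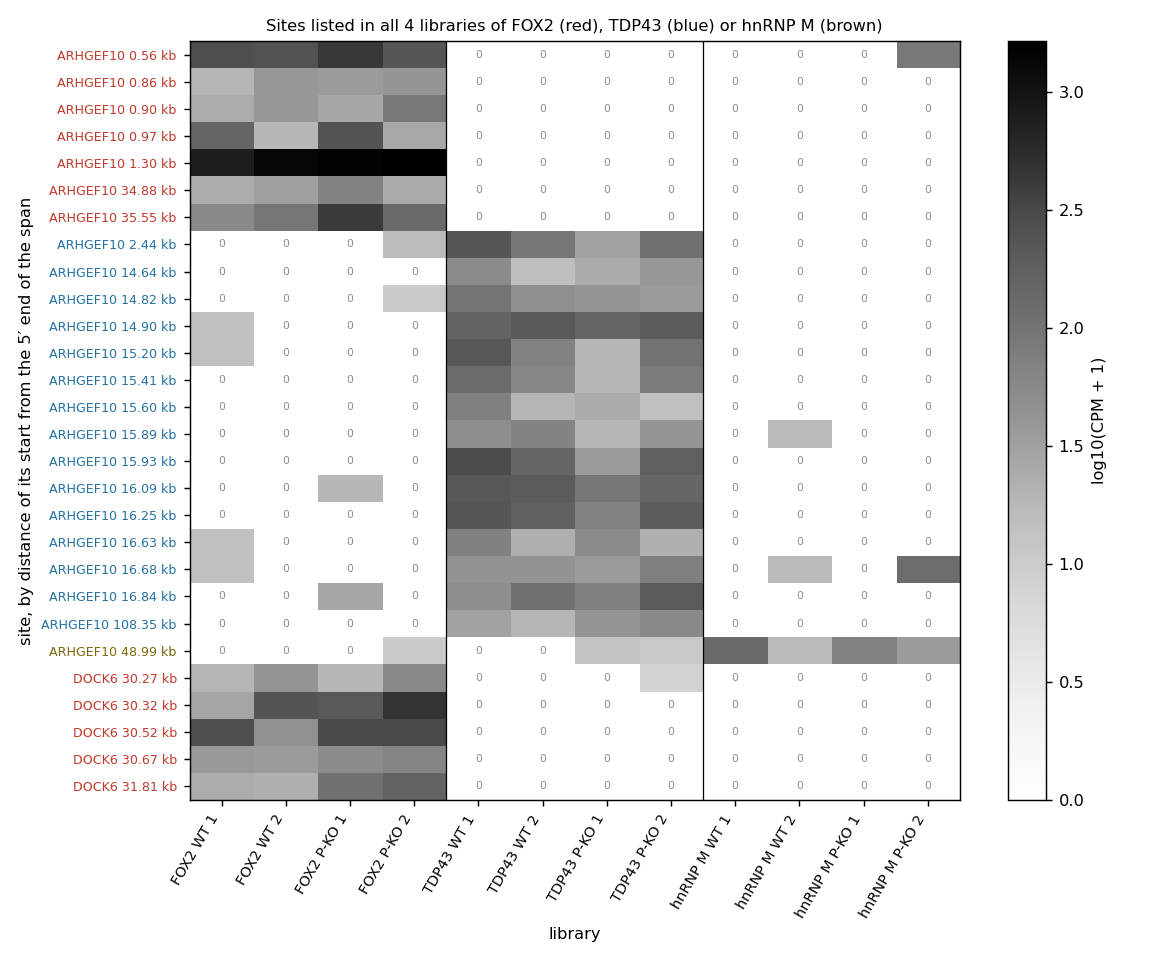
Level of each repeated site (rows, named by the distance of its first position from the 5′ end of the span) in each of the 12 libraries (columns), as log10(CPM + 1), with 0 printed where nothing is listed. The 7 ARHGEF10 and 5 DOCK6 sites of FOX2 are listed in all 4 FOX2 libraries and, apart from 5 counts at 1 ARHGEF10 site in hnRNP M P-KO replicate 2 and 2 counts at 1 DOCK6 site in TDP43 P-KO replicate 2, in no other library.

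The genotype comparison asked whether contacts with these RNAs differed between P-KO and WT cells. The choice of genes did not use it, so it was tested, with edgeR's quasi-likelihood F test on 10551 features (strand-specific 10 kb bins and the 2 spans, both of which passed the filter on low counts) and Benjamini-Hochberg adjustment. No comparison passed for either gene in edgeR or in DESeq2, and the smallest unadjusted edgeR p in this fit was 0.0547, for the common effect on DOCK6. Both P-KO libraries lay above both WT libraries for FOX2 on ARHGEF10 and on DOCK6; of all tested features 16.8% did the same and 26.0% did the reverse.

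For FOX2 on ARHGEF10 the mean was 3928 ± 36.8 CPM in P-KO and 2424 ± 299 in WT (SD, n = 2), a ratio of 1.62. The edgeR log2 difference was 0.85 with a standard error of 1.34 (adjusted p = 1.00), where 0.0190% of features were called and the median feature was at -0.22. On DOCK6 the means were 1345 ± 440 CPM in P-KO and 570 ± 134 in WT, a ratio of 2.36, with an edgeR log2 difference of 1.42 ± 1.32 (SE, adjusted p = 1.00). In this fit of all 12 libraries the standard errors were about as large as the differences or larger. With FOX2 libraries alone the edgeR log2 difference was smaller, and so was its standard error. It was 0.17 ± 0.39 on ARHGEF10 and 0.70 ± 0.42 on DOCK6 (SE, adjusted p = 0.912 and 0.632). Neither a rise nor a lack of change can be read from these fits.

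At the repeated sites the ratio of mean FOX2 CPM in P-KO to that in WT ranged from 1.27 to 3.75 on ARHGEF10 and from 1.21 to 6.04 on DOCK6. Both P-KO libraries lay above both WT libraries at only 2 of the 7 ARHGEF10 sites and 3 of the 5 DOCK6 sites. At no repeated site did both lie below, and the libraries overlapped at the rest. The share over sites of other genes was not counted, so nothing is read from these numbers of sites. The largest ratio on ARHGEF10, 3.75, was at the intron 3 site chr8:1807702-1807771; the intron 3 stretch had 194 ± 93.2 CPM in WT and 631 ± 326 in P-KO, a ratio of 3.25, against 1.42 for the stretch at the start of intron 1 (1620 ± 177 and 2299 ± 397 CPM). On DOCK6 the largest, 6.04, was at chr19:11341281-11341344. Single sites were not tested. In 10 kb bins, neither the bin with the intron 3 stretch nor any other ARHGEF10 bin was called for FOX2. Over the 13 tested bins and all comparisons the smallest edgeR adjusted p was 0.400. It came from hnRNP M, in bins where both hnRNP M WT libraries were listed at 0.

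A difference of whole libraries moved with these values. The mean count per window over all RNAs was 2.76 and 2.93 in FOX2 WT, against 3.84 and 5.76 for FOX2 P-KO. Within ARHGEF10 it was 6.45 and 9.06 in WT, against 11.9 and 14.5 for P-KO, and within DOCK6 7.43 and 7.38 in WT, against 9.23 and 23.3 for P-KO. Counted as windows per 1000000 windows, with counts left aside, ARHGEF10 had 946 and 853 in FOX2 WT, against 1274 and 1554 for P-KO, and DOCK6 177 and 264 in WT, against 430 and 409 for P-KO. The edgeR log2 difference for FOX2 on numbers of windows was 0.14 ± 0.40 on ARHGEF10 and 0.38 ± 0.52 on DOCK6 (SE, adjusted p = 0.910 and 0.793), against 0.85 and 1.42 on counts. The part of the library-wide difference in the gene values was not tested.

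For TDP43 the ARHGEF10 means were 2595 ± 409 CPM in P-KO and 2802 ± 455 in WT, with overlapping libraries and an edgeR log2 difference of -0.18 ± 1.33 (SE, adjusted p = 1.00; 0.0284% of features called), which became 0.23 without P-KO replicate 1. Within the gene, TDP43 CPM over its intron 1 stretch was 2146 and 1463 in WT, against 973 and 1599 for P-KO, which also overlapped. On DOCK6 both TDP43 P-KO libraries lay above both WT libraries, as did 16.2% of features (12.9% did the reverse), but on very few counts: 19 in P-KO and 2 in WT, a ratio of 10.0 with an exact 95% counting interval of 2.42 to 88.7, which covers counting error only and treats counts as independent, which PCR copies are not. The edgeR log2 difference was 3.06 ± 1.65 (SE, adjusted p = 1.00), and it was 2.13 without TDP43 WT replicate 2. No fold is given without WT replicate 1, which leaves only a WT library listed at 0. The same holds for intron positions only, since the 2 counts of WT replicate 1 carry an exon label. No TDP43 site of DOCK6 was present in both libraries of a group.

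For hnRNP M the ARHGEF10 means were 1814 ± 764 CPM in P-KO and 1313 ± 70.5 in WT, a ratio of 1.38 carried by P-KO replicate 2. The libraries overlapped; of all tested features 9.14% lay wholly higher and 9.40% wholly lower in hnRNP M P-KO. The edgeR log2 difference, after TMM scaling, was 0.06 ± 1.33 (SE, adjusted p = 1.00; 0.0474% of features called), and it ranged from -1.02 to 0.88 when single libraries were left out. DOCK6 gave no hnRNP M comparison. The genotype effect on FOX2 minus that on TDP43 was 1.02 ± 1.88 in log2 for ARHGEF10 and -1.64 ± 2.01 for DOCK6 (SE, edgeR adjusted p = 1.00 for both), so no difference between the proteins was shown.

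Taking the 3 proteins in one edgeR model, the common effect of P-KO was 0.24 ± 0.79 in log2 on ARHGEF10 and 1.96 ± 1.02 on DOCK6 (SE, adjusted p = 1.00 for both; 0.123% of features called, all lower in P-KO). An exact permutation test of genotype within each protein, two-sided on log2(CPM + 10), gave a mean difference of 0.33 for ARHGEF10 (p = 0.130) and 1.04 for DOCK6 (p = 0.0556); the DOCK6 difference was 1.65 with a pseudocount of 1 CPM and 0.64 with 50 CPM. Over 216 arrangements the smallest p that the ARHGEF10 values allow is 0.00926. For DOCK6, where hnRNP M was listed at 0 in both genotypes and its arrangements tie, it is 0.0556, so this test could not pass 0.05 for DOCK6. The edgeR p-values rest on a spread estimated over all 12 libraries and shared between the tested features. The permutation p-values rest on the values of these libraries for each gene. With 2 libraries a group, neither reaches beyond the libraries at hand.

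The transcripts whose level over the 12 libraries was most like each gene were found among 3738 transcripts outside the spans with a mean of at least 10 counts. For ARHGEF10 they were ENST00000270112.2 on chromosome 21 (Pearson's r = 0.967 of log2(CPM + 10) over 12 libraries) and ENST00000574029.1 on chromosome 17 (r = 0.939). For DOCK6 they were ENST00000257879.6 on chromosome 12 (r = 0.979) and ENST00000467929.2 on chromosome 17 (r = 0.974). The first DOCK6 match had 229 and 242 CPM in FOX2 WT, against 297 and 358 for FOX2 P-KO, at most 23.2 CPM in any TDP43 library, and was listed at 0 in hnRNP M. The libraries share protein and depth, and no p is given. The gene symbols of these transcripts, other exchange factors and GTPases, H9 marker genes and sequence motifs were not analysed here.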

How the data were processed

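Both genes and all lists were chosen with earlier results of these data known. The submitters' processing notes name Bowtie (version not given in the sources used here) and the build GRCh37 (hg19), and no peak caller. Each deposited file lists single nucleotides of 1 library with transcript, intron number, strand and a whole-number count; the counts are as deposited by the authors, not normalized, and may be reads or collapsed cDNAs. The authors' deposited p-value or q-value per position (which of them is not stated) was never above 0.05.

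Counts were equal in 94.5% to 100% of isolated pairs of positions at most 5 nt from each other, so a count was read as covering 11 nt; windows were kept from the highest count downwards, at least 11 nt apart. Counts were summed over strand-specific 10 kb bins and 1 row per gene span and tested with edgeR 4.0.16 (R 4.3.3; filterByExpr, TMM, quasi-likelihood F test, 12 libraries in one fit, adjusted p threshold 0.05). The edgeR standard errors were computed as the absolute log2 difference divided by the square root of F. DESeq2 1.42.0 was an alternative, and the fits were tested on simulated data. Permutations and overlaps used Python 3.11.15 with scipy 1.17.1.

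Sites in all 4 FOX2 libraries were given in full (the rule allowed the 8 highest per gene), with TDP43 or hnRNP M sites in both libraries of a group, the genes' bins, and the 2 most similar transcripts per gene. Stretches join sites up to 2000 nt apart. This, the test of FOX2 minus TDP43 and the fit on plain bins were added after seeing the data. The shares downstream of exon-labelled positions were not planned either. Their transcripts were named by hand, for introns that hold repeated FOX2 sites, so those shares are a description. Replicate numbers were not used to pair libraries in the main fit. The correlation of same-numbered deviations within a protein was 0.13 (FOX2), 0.10 (TDP43) and 0.03 (hnRNP M), against 0.01 to 0.07 between proteins. These values are low, but a weak pairing within FOX2 and TDP43 was not tested.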

Additional observations from a re-analysis of the deposited data

How the results depend on the processing

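Of 197 alternative values, 180 kept their direction and their side of the threshold, 12 changed sign and 5 counts of sites moved; no edgeR or DESeq2 value of either gene passed 0.05 in 151 alternatives, the smallest adjusted p being 0.632. The sign changes were all on ARHGEF10. The TDP43 log2 difference was 0.23 without TDP43 P-KO replicate 1 and ranged from -0.56 to 0.23 over single left-out libraries. The hnRNP M difference was -0.11 with no filter on low counts and ranged from -1.02 (without P-KO replicate 2) to 0.88 over single left-out libraries; without WT replicate 1 it was -0.77. Over all alternatives the FOX2 difference ranged from 0.14 to 1.27 on ARHGEF10 and from 0.38 to 2.11 on DOCK6, the lowest values coming from numbers of windows; with FOX2 libraries alone it was 0.17 and 0.70. The common effect ranged from 0.04 to 0.51 on ARHGEF10 and from 0.69 to 2.45 on DOCK6. The TDP43 difference on DOCK6 ranged from 2.13 to 3.22 in the settings where TDP43 WT had counts. The sites repeated in FOX2 fell from 7 to 4 on ARHGEF10 with listed p or q of at most 0.01, and from 5 to 3 on DOCK6 with sites joined over 30 nt. Required in the other 3 FOX2 libraries, they numbered 9 to 13 on ARHGEF10 (13 without WT replicate 1, 12 without WT replicate 2) and 5 to 8 on DOCK6 (8 without WT replicate 1); these left-out counts were chosen after seeing the data. With the replicate number as a block the FOX2 differences were 0.86 on ARHGEF10 and 1.37 on DOCK6 and no call changed. Their standard errors were 0.72 and 0.86, against 1.34 and 1.32 in the main fit. DOCK6 gave no hnRNP M value, and TDP43 on DOCK6 was not tested with TDP43 libraries alone, where the span did not pass the filter. The hnRNP M counts, 79 to 156 on ARHGEF10, limit what can be seen there.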
